A study of Sus scrofa with 3 samples.

Results

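The genes described are the subunits of the proteasome and the factors that assemble, activate or inhibit it, measured in tooth germs of Wuzhishan miniature pigs. They were taken as the genes whose platform symbol begins with PSMA to PSMG and a number, or with PSME, among probe sets that carry exactly 1 symbol. This gave 46 probe sets of 40 genes, out of 6765 genes with a symbol on the array. Where a gene had several probe sets, the one brightest in mean log2 signal over the 3 arrays stood for it. The samples were 3 pools of last deciduous molar germs (Dm3) with their dental lamina, taken from the lower jaws of a litter at each of embryonic days E40, E50 and E60. No treatment or genetic change was applied, and all animals shared the breed. The labels place the germ in the cap stage, still lacking a secondary dental lamina, at E40 and in the bell stage, where that lamina starts, at E50. At E60 the lamina is present, and the stage is called secretory in the labels and late bell in the methods. Every stage was read on 1 Affymetrix Porcine Genome Array, and the signals are in the arbitrary units of the MAS 5.0 algorithm. There was no replicate, so no p-value is given, and every difference compares 3 pools rather than the stages at large. A pool holds the whole dissected germ, so fewer cells of a type and less RNA per cell cannot be told apart.

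The proteasome is the main protease of the cytosol and the nucleus. It takes in proteins that carry chains of ubiquitin, unfolds them and cuts them into peptides. Its core particle is a barrel of stacked rings, in which the alpha subunits (PSMA genes) form the gate and the beta subunits (PSMB genes) line the chamber, with PSMB5, PSMB6 and PSMB7 as the cutting subunits. A cap on the barrel binds the substrate, removes the ubiquitin and drives the chain inside with a ring of ATPases (PSMC genes) and a set of further subunits (PSMD genes). In cells exposed to interferon, and in many immune cells, PSMB8, PSMB9 and PSMB10 take the places of PSMB5, PSMB6 and PSMB7, and PSME1 and PSME2 form another activator ring. This form, the immunoproteasome, makes peptides for presentation on MHC class I.

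A list of 48 proteasome genes was written for this report, and 8 of them had no probe set with their symbol in the platform table. These were PSMA8, PSMB9, PSMB11, PSMC4, PSMD7, PSMD9, PSMG2 and PSMG4. All 40 members had signals above the 25th percentile of each array, the floor to which dimmer signals were raised (29.3 at E40, 17.2 at E50 and 21.8 at E60). The floor therefore bears on the array-wide values given for comparison and not on the members. The median member stood at the 93.7th percentile of the E40 array, the 94.8th of the E50 array and the 93.7th of the E60 array. Over the 90th percentile were 27, 29 and 26 members in the same order. The dimmest was PSMB8, at the 37.0th, 49.1th and 46.2th percentiles. In the RefSeq table of the pig assembly Sscrofa11.1 the 40 genes are spread over 13 chromosomes.

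**Figure D1:**
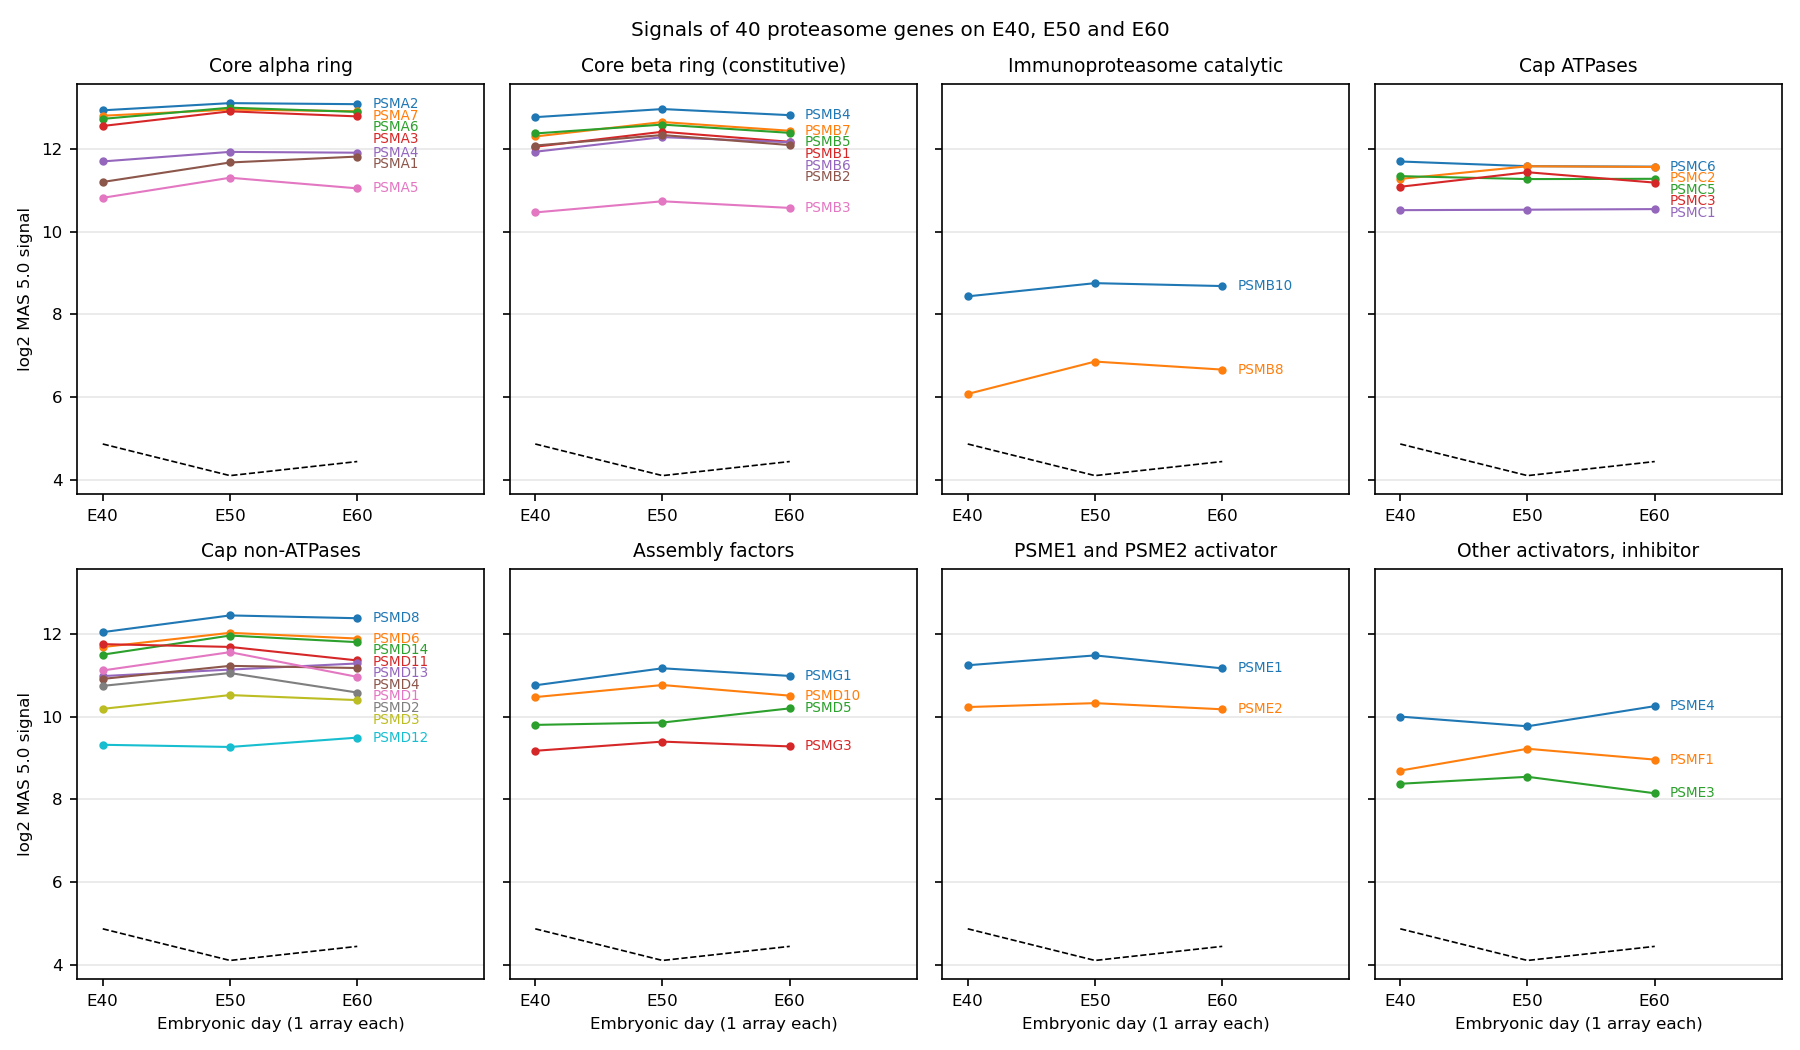
Log2 MAS 5.0 signal (vertical axis) of the 40 proteasome genes over the 3 stages (horizontal axis, 1 array per stage), in 1 panel for each role. A solid line joins the signals of 1 gene, and dashes mark the floor of the arrays. The height of a line depends on its probes as well as on RNA, so only changes along a line can be read. Nearly all lines are shallow, and 31 of the 40 are highest at E50.

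Markers of other tissues differed between the pools, and with 1 pool per stage such differences and the stage cannot be told apart. The summed signal of 16 skeletal muscle genes was 45763 at E40, 1101 at E50 and 3800 at E60, and all 16 were over 2-fold lower at E50 than at E40, as were 15.0% of all measured probe sets. MYL1 alone gave most of the E60 sum (481 at E50 and 3266 at E60), and the other 15 genes summed to 38646, 620 and 534. The summed signal of 9 tooth germ markers was 7572, 12323 and 71008, with AMBN, AMELX, ENAM, DSPP and MMP20 brightest at E60. MSX1 stood at 1559, 737 and 1214, LEF1 at 3512, 3210 and 2455, and BMP4 at 2329, 3160 and 3893, all above the floor. Of 15 leukocyte markers the sum was 1640, 1476 and 1947, with 5, 3 and 4 of them under the floor. The leukocyte marker PTPRC (CD45) was under the floor on all 3 arrays. The sum of 7 endothelial markers was 2730, 1344 and 2238, and that of 4 erythroid markers 2467, 2074 and 2718. The part of these tissues in the proteasome values was not tested. The E50-to-E60 values do not use the E40 array, but the marker sums differed between E50 and E60 as well.

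The proteasome genes as a group differed little between stages, but mostly in the same direction. Differences are given from the earlier to the later stage, with the later minus the earlier log2 signal, and the plots label the same pairs with the later stage named before the earlier. At E50, 35 of the 40 genes were higher than at E40, with a median log2 fold change of 0.28 (1.22-fold), beside 41.0% of all measured probe sets and 69.4% of the brightest 10% of probe sets. The values ran from -0.23 for PSME4 to 0.78 for PSMB8. At E60, 33 of the 40 were lower than at E50, with a median of -0.13, beside 47.0% of all and 57.7% of the brightest 10%. The median turned to 0.01 under scaling to the housekeeping genes, of which YWHAZ alone was over 2-fold lower at E60 than at E50. The member values had a range from -0.60 for PSMD1 to 0.49 for PSME4. From E40 to E60, 32 were higher and 8 lower, with a median of 0.16 (1.12-fold), beside 42.0% higher of all and 61.3% of the brightest 10%. Under quantile normalization 24 were higher and 16 lower, and the median of 0.07 stood 0.03 above that of all measured probe sets. In 26 genes the order of the signals was E40, E60, E50 from low to high, and 30 genes were lowest at E40. No share over all probe sets is given for these counts. In all, 31 genes (77.5%) were highest at E50, 6 at E60 and 3 at E40. E50 was the highest array for 28.5% of all probe sets above the floor on every array and for 44.6% of the brightest 10%.

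No member differed by over 2-fold in any pair of stages. Over 2-fold lay 17.5% of all measured probe sets from E40 to E50, 8.08% from E50 to E60 and 16.7% from E40 to E60. Among the brightest 10% of probe sets, where most members lie, the shares were 4.17%, 1.54% and 5.0%. From E40 to E50, 1 member was over 1.5-fold higher (PSMB8), beside 8.31% of all measured probe sets. From E50 to E60, 1 was over 1.5-fold lower (PSMD1), beside 7.69%. From E40 to E60, 2 were over 1.5-fold higher (PSMA1 and PSMB8), beside 11.3%.

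The median log2 fold change of the brightest 10% was 0.17, -0.04 and 0.10 for E40-to-E50, E50-to-E60 and E40-to-E60, in that order. Each has the sign of the members' median and is nearer to 0.

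The spread among the members was narrow. The middle 50% of the 40 log2 fold changes spanned 0.19 from E40 to E50, where it spanned 0.41 in the brightest 10% of probe sets and 0.88 in all. It spanned 0.22 from E50 to E60 (0.36 and 0.62) and 0.23 from E40 to E60 (0.48 and 0.82). The selections are unlike, since each member is the brightest probe set of a named gene. The comparison sets were drawn from all probe sets, with or without a symbol, and can hold several of 1 gene. For scale, the log2 fold changes of the brightest and the next probe set of the same gene differed with an SD of 0.45 from E40 to E50 in 98 genes among the brightest 10%, and of 0.36 and 0.41 in the other pairs. The difference of a single member between stages was below this SD for most genes, and what follows for single genes is given as values.

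**Figure D2:**
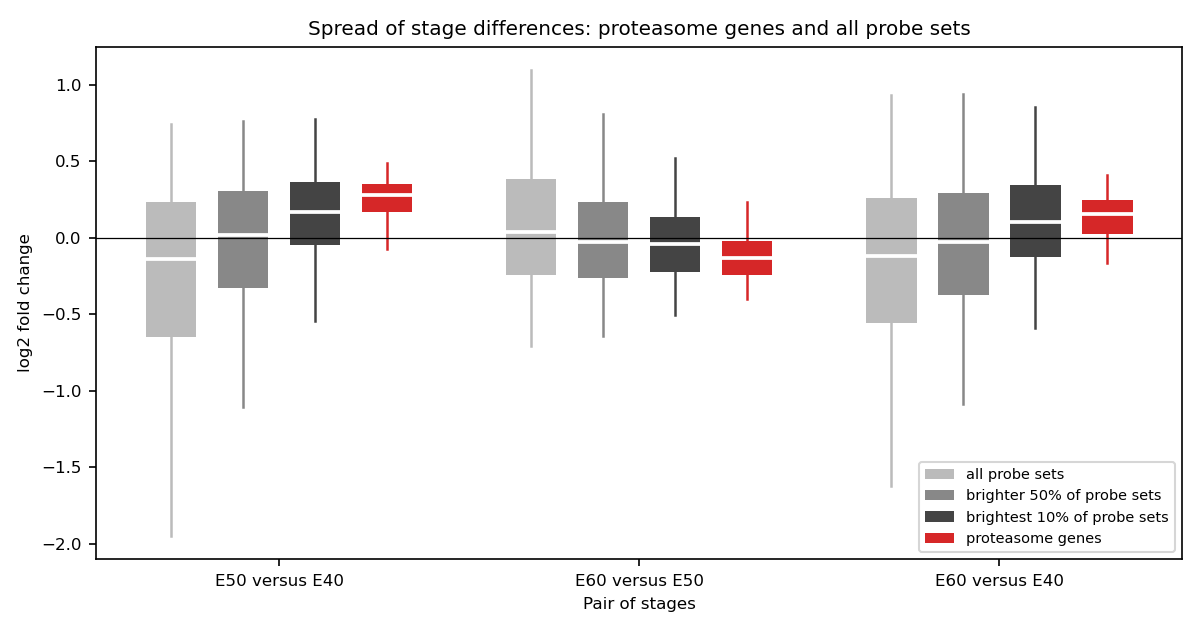
Log2 fold changes (vertical axis) in each pair of stages (horizontal axis) for all measured probe sets, the brighter 50%, the brightest 10% and the 40 proteasome genes. Boxes span the middle 50% of the values, white lines are medians and thin lines run from the 5th to the 95th percentile. From E40 to E50 the median is -0.14 for all probe sets, 0.17 for the brightest 10% and 0.28 for the proteasome genes, whose box is the shortest.

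The gate-forming alpha subunits were higher at E50 than at E40 in 7 of 7 genes, with a median log2 fold change of 0.27 and a range of 0.15 to 0.48. PSMA2 had signals of 7820, 8820 and 8665 at E40, E50 and E60 and was the brightest probe set of the ring. PSMA7, whose range over the stages was the smallest of the PSMA genes, stood at 7141, 7914 and 7698. PSMA5, the dimmest, stood at 1806, 2527 and 2117. These genes were lowest at E40 and highest at E50. PSMA1 went on to E60 instead, at 2355, 3264 and 3604. It was 1.39-fold higher at E50 than at E40 and 1.53-fold higher at E60 than at E40, and it was the only alpha subunit higher at E60 than at E50. PSMA3, PSMA4 and PSMA6 were highest at E50 and within 1.28-fold of their E40 signals. The median of the ring from E50 to E60 was -0.04 and turned to 0.10 when the arrays were scaled to the housekeeping genes, and from E40 to E60 it was 0.21 with 7 of 7 genes higher.

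The constitutive beta subunits were the most even group among those with at least 5 members. All 7 were higher at E50 than at E40 and all 7 lower at E60 than at E50. Their log2 fold changes lay between 0.20 and 0.36 in the former pair, with a median of 0.27, and between -0.24 and -0.12 in the latter, with a median of -0.20. The cutting subunit PSMB5 stood at 5307, 6157 and 5359, so that its E60 signal was 1.01-fold its E40 signal. The cutting subunits PSMB6, at 3906, 4992 and 4579, and PSMB7, at 5046, 6426 and 5551, were 1.28-fold and 1.27-fold higher at E50 than at E40. PSMB4, the brightest of the group and the PSMB gene with the smallest range over the stages, stood at 6973, 7987 and 7211, and PSMB3, the dimmest, at 1414, 1704 and 1525. PSMB1 (4248, 5461 and 4614) and PSMB2 (4336, 5168 and 4369), which do not cut, followed the same course. From E40 to E60 the median of the ring was 0.11 with 7 of 7 genes higher, but it turned to -0.05 under quantile normalization. Taken as 1 core particle, the 14 constitutive subunits were all higher at E50 than at E40, and 13 of them were lower at E60 than at E50.

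The ATPases of the cap were divided in direction. Of 5 genes 3 were higher and 2 lower at E50 than at E40, and the median was 0.01, a value whose sign turned under quantile normalization (-0.03) and under scaling to the housekeeping genes (-0.09). PSMC1 had the smallest range over the stages of the PSMC genes and of all members, at 1469, 1481 and 1495 on its only probe set. PSMC5 stood at 2597, 2472 and 2484 and PSMC6, the brightest ATPase, at 3319, 3068 and 3043, both highest at E40. PSMC3 stood at 2174, 2773 and 2330, the course of the core subunits. PSMC2 had 3 probe sets, which did not move together. The brightest stood at 2479, 3064 and 3031, another at 1958, 2967 and 1818, and the last at 1133, 1440 and 1542. All 3 were higher at E50 than at E40, by 0.31 to 0.60 on the log2 scale, but from E50 to E60 they ran from -0.71 to 0.10. The medians of the ATPases in the other pairs were -0.01 from E50 to E60 and 0.03 from E40 to E60, and both turned sign under quantile normalization (0.02 and -0.02), the former also under scaling to the housekeeping genes (0.13).

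The other cap subunits were higher at E50 than at E40 in 8 of 10 genes, with a median of 0.32. PSMD14, the enzyme that removes ubiquitin chains from the incoming protein, stood at 2887, 3975 and 3559, which is 1.38-fold higher at E50 than at E40. PSMD4, a ubiquitin receptor of the cap, stood at 1923, 2393 and 2308. With each gene taken by its brightest probe set, PSMD8 was the brightest of the group, at 4209, 5569 and 5313, and PSMD12 the dimmest, at 638, 615 and 719. PSMD12 and PSMD11 (3442, 3286 and 2621) were the exceptions from E40 to E50. The probe sets of PSMD12, which had the smallest range of the PSMD genes over the stages, and PSMB3 carry the suffix that marks matches to several transcripts of a gene.

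The large scaffold subunits of the cap, PSMD1 and PSMD2, had the lowest log2 fold changes among the members from E50 to E60. PSMD1 stood at 2215, 3009 and 1990 and was 1.51-fold lower at E60 than at E50. Its dimmer probe set stood at 1611, 1569 and 1461, so it was lower at E60 than at E50 too, but it was not higher at E50 than at E40. PSMD2 stood at 1712, 2122 and 1531, which is 1.39-fold lower at E60 than at E50. PSMD11 was lowest at E60 on each of its 3 probe sets, by -0.39 to -0.09 on the log2 scale against E40, while from E40 to E50 the probe sets ran from -0.13 to 0.14. PSMD13 went the other way, with 2016, 2248 and 2491. For the group the median from E50 to E60 was -0.13, with 8 of 10 genes lower, and became 0.01 under scaling to the housekeeping genes.

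**Figure D3:**
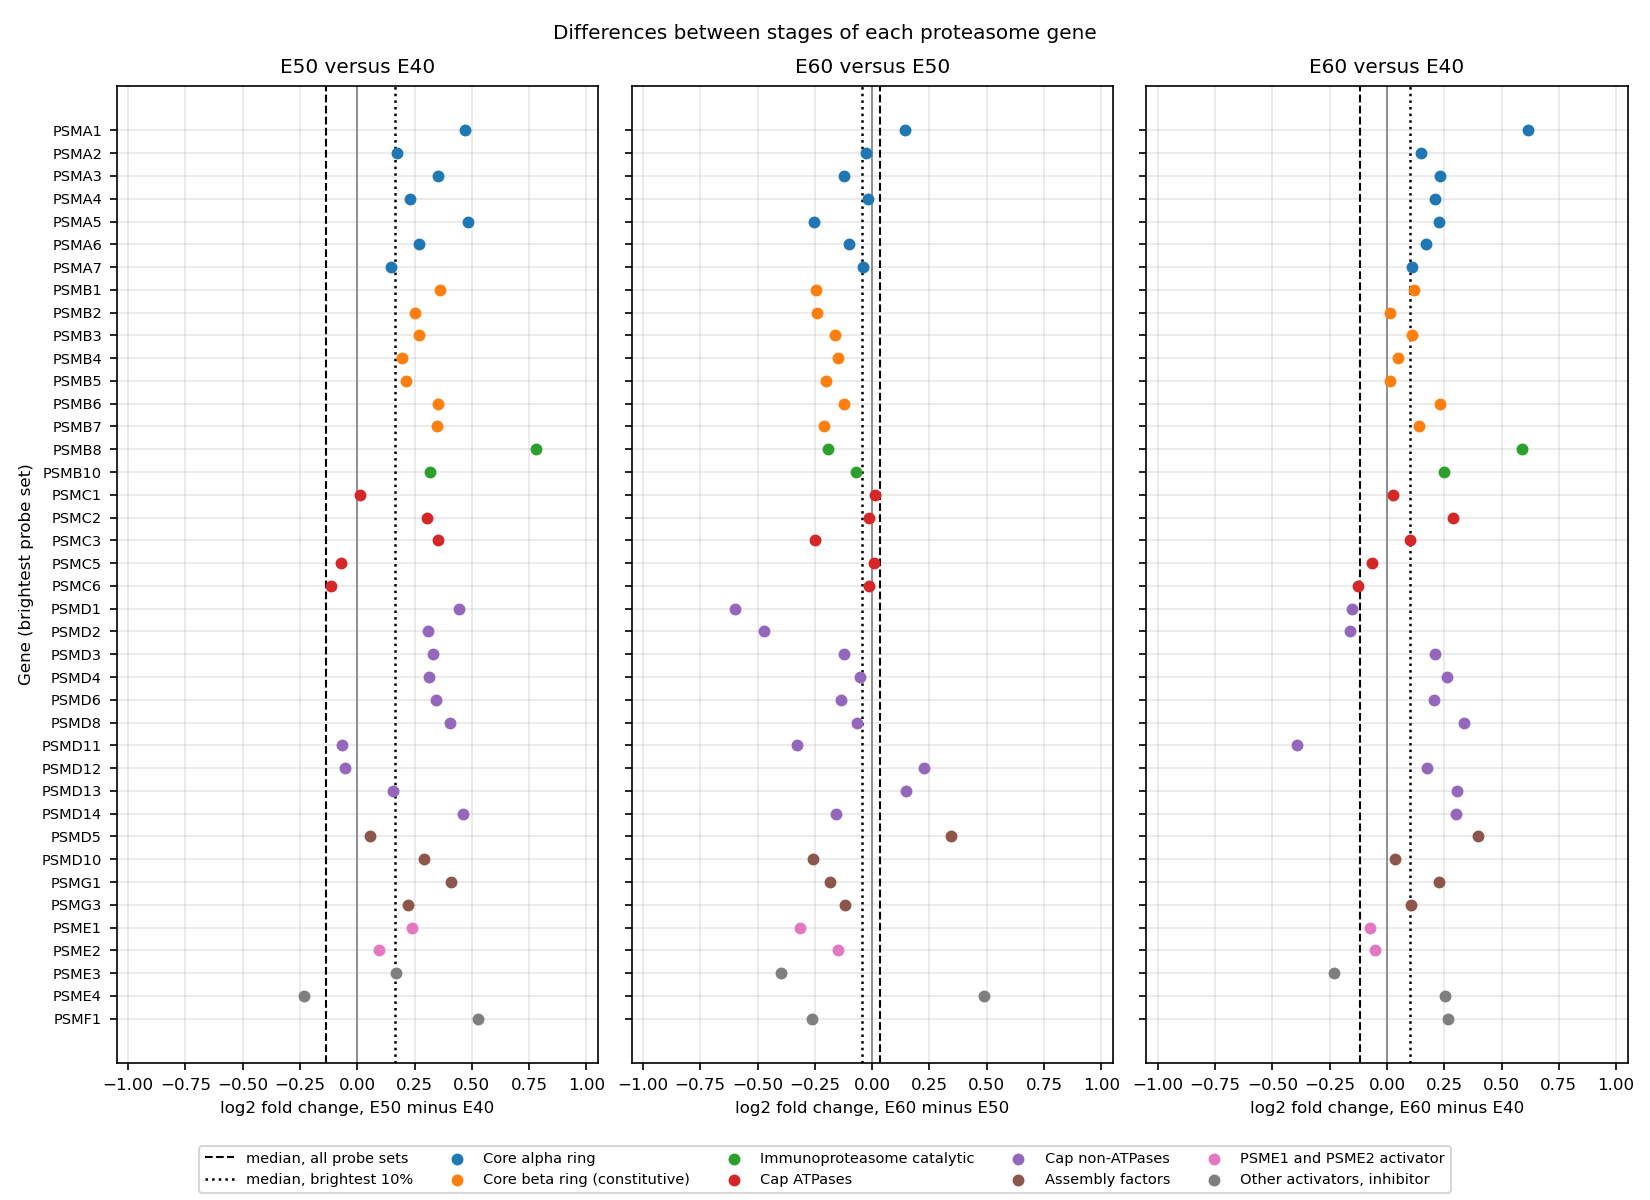
Log2 fold change (horizontal axis) of each of the 40 proteasome genes (vertical axis) in the 3 pairs of stages, coloured by role, with the medians of all measured probe sets (dashed) and of the brightest 10% (dotted). From E40 to E50 the orange points of the constitutive beta ring lie between 0.20 and 0.36, and the red points of the cap ATPases spread to both sides of 0.

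Of the factors that build the particle, 4 of 4 were higher at E50 than at E40, with a median of 0.26. PSMG1, a chaperone of the alpha ring, stood at 1728, 2297 and 2021, and PSMG3, another such chaperone and the dimmest of the group, at 577, 673 and 621. PSMD10 and PSMD5 hold ATPases of the cap before they join it. PSMD10 stood at 1418, 1736 and 1452. PSMD5 stood at 890, 926 and 1174 and was 1.27-fold higher at E60 than at E50, unlike the other assembly factors.

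The activators PSME3 and PSME4 and the inhibitor PSMF1 had no common course. PSME4, a large activator that opens the barrel without ubiquitin, had signals of 1023, 870 and 1219. It was the member furthest below 0 from E40 to E50 and the furthest above 0 from E50 to E60, where it was 1.40-fold higher. PSME3, the nuclear activator, stood at 332, 373 and 283, lowest at E60. PSMF1, an inhibitor of the core particle, stood at 414, 597 and 498 on the brighter of its probe sets (1.44-fold higher at E50 than at E40) and at 251, 283 and 260 on the other.

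Among the immunoproteasome genes PSMB8 had the largest difference of all members. Its signals were 67.7 at E40, 116.3 at E50 and 101.7 at E60, so that it was lowest at E40 and 1.72-fold higher at E50. Its E40 signal was 2.31 times the floor of that array. Under quantile normalization the log2 fold change of 0.78 from E40 to E50 became 1.29, and under equal medians of the arrays it also passed 2-fold. PSMB10 stood at 346.9, 432.7 and 412.2 and was 1.25-fold higher at E50 than at E40. PSMB8 and PSMB10 were the only catalytic immunoproteasome genes among the members. The median of these 2 genes was 0.55 from E40 to E50 and 0.42 from E40 to E60, and without PSMB8, which also drops out with a floor at the 50th percentile, the values are those of PSMB10 alone (0.32 and 0.25). From E50 to E60 the median was -0.13, which turned to 0.01 under scaling to the housekeeping genes.

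A change can be compared between a subunit and the partner it replaces, since each is a ratio within a probe set. From E40 to E50 the log2 fold change of PSMB8 exceeded that of PSMB5 by 0.57, and by 1.25 under quantile normalization. From E40 to E60 the gap was 0.57 as well, and from E50 to E60 it was 0.01. PSMB10 differed from PSMB7 by -0.03, 0.14 and 0.11 for E40-to-E50, E50-to-E60 and E40-to-E60. The SD between probe sets of a gene from E40 to E50 was 0.78 over all measured probe sets, which is larger than the PSMB8 gap as deposited. PSMB8 is not among the brighter 50% of probe sets.

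PSMB9 and PSMD7 have no symbol in the platform table, but gene tables of the study give their names to probe sets. Those tables list genes chosen on these same arrays for differing between stages, so the size of the change comes with the choice and the probe sets are not counted with the 40. The probe set named PSMB9 stood at 31.9, 92.2 and 55.3, and the one named PSMD7 at 44.5, 17.4 and 29.0. The E40 signal of the former and the E50 signal of the latter were just above the floor of their arrays. From E40 to E50 the former was 2.89-fold higher and the latter 2.56-fold lower.

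PSME1 and PSME2 form the interferon-inducible activator ring. PSME1 stood at 2417, 2851 and 2295 and PSME2 at 1200, 1282 and 1156, both highest at E50 and lowest at E60. PSME1 was 1.24-fold and PSME2 1.11-fold lower at E60 than at E50. The median of the pair was 0.17 from E40 to E50, -0.23 from E50 to E60 and -0.06 from E40 to E60, and the last turned to 0.24 with the arrays at equal medians. In the RefSeq table PSME1 and PSME2 lie close together on chromosome 7, with EMC9 between them and the interferon transcription factor gene IRF9 beside PSME2. IRF9 stood at 207.7, 313.6 and 139.9. PSMB8 and PSMB9 lie on the same chromosome, with TAP1, a subunit of the peptide transporter of class I presentation, between them. TAP1 stood at 636.1, 643.1 and 471.7 on the brightest of its probe sets.

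Listed interferon response genes outside the proteasome had a median log2 fold change of 1.02 from E40 to E50. The list was divided, with 11 of 17 genes higher and 6 lower at E50, from -0.49 for GBP2 to 2.87 for DDX58. Its median was 0.81 over the 16 genes above the floor on each array, which leaves out RSAD2, and PSMB8 stood at 0.78. From E50 to E60 these 16 genes had a median of -1.18 and PSMB8 stood at -0.19. Of the 17 measured from E40 to E50, 9 were over 2-fold higher at E50 than at E40, beside 2.49% of all measured probe sets. The number was 7 under scaling to the housekeeping genes and 9 under the other scalings. From E50 to E60, 10 of the 17 were over 2-fold lower, beside 1.84% of all. Neither PSMB8, PSMB10, PSME1 nor PSME2 passed 2-fold in these pairs as deposited. IRF1, a transcription factor that drives immunoproteasome genes under interferon, stood at 168.4, 160.8 and 253.7 and was thus highest at E60. Of 8 named genes of class I antigen presentation, 1 was over 2-fold higher at E50 than at E40 (SLA-2, a class I heavy chain whose probe set can also match related genes, at 1291, 2730 and 2691). With equal medians or quantile normalization 2 were, and under scaling to the housekeeping genes 0. B2M, the light chain of class I, stood at 21652, 20910 and 20211, and the list median was 0.13. Of the 13 leukocyte markers measured from E40 to E50, 3 were higher and 10 lower at E50, beside 59.0% lower of all measured probe sets. Dim signals were raised to the floor, which is higher at E40 (29.3) than at E50 (17.2). This made CD14 (14.8 at E40 and 23.6 at E50 as deposited) and CD3E (1.1 and 17.8) count as lower. The relation of these lists to the proteasome values was not tested.

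**Figure D4:**
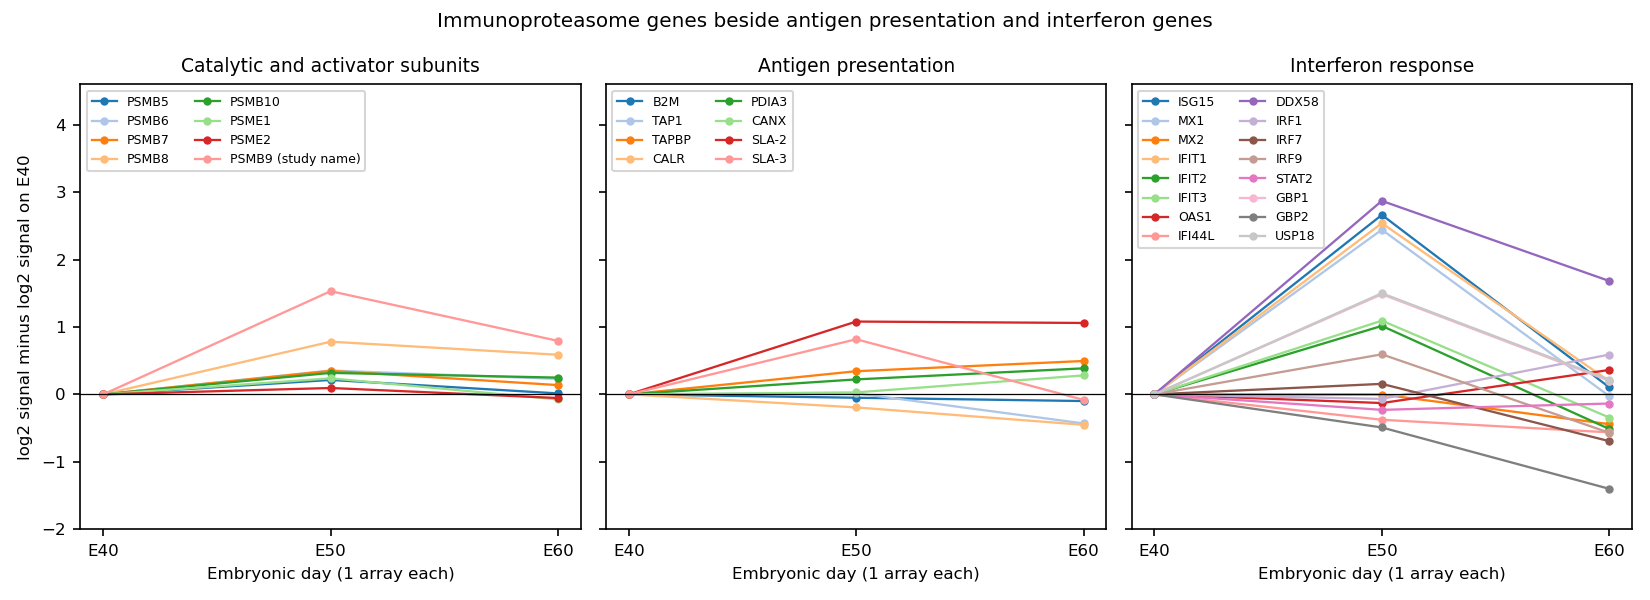
Log2 signal relative to E40 (vertical axis) at the 3 stages (horizontal axis, 1 array per stage) for catalytic and activator subunits, genes of antigen presentation, and interferon response genes above the floor on each array. PSMB8 reaches 0.78 at E50, where the 16 plotted interferon genes have a median of 0.81. From E50 to E60 PSMB8 changes by -0.19, and the median change of the plotted interferon genes is -1.18. The probe set that the study names PSMB9 reaches 1.53 at E50, but it comes from tables of genes chosen on these arrays for differing.

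Genes that work with the proteasome but lie outside the rule were few on the platform. Of 4 such partners with a symbol, none passed 1.5-fold in any pair, a count that says little for so few genes. Past 1.5-fold in either direction lay 35.5% of all measured probe sets from E40 to E50, 24.0% from E50 to E60 and 35.1% from E40 to E60. Among the brightest 10% the shares were 14.1%, 7.08% and 16.8%. The medians of the 4 partners were 0.21 from E40 to E50 and -0.31 from E50 to E60. SEM1, a small subunit of the cap, stood at 7241, 9051 and 6991 and thus shared the E50 maximum of most members. ZFAND5, a ubiquitin-binding activator, stood at 6057, 7295 and 6142. Of 5 genes of ubiquitin supply and delivery none passed 1.5-fold, beside the same shares and again with few genes. Their medians were 0.11 and -0.02, the latter turning to 0.12 under scaling to the housekeeping genes. The ubiquitin gene UBB stood at 25891, 24967 and 24649, highest at E40, and VCP, the ATPase that extracts ubiquitinated proteins, at 2672, 3023 and 2853. Of the 8 listed transcription factors and processing factors of proteasome genes, among them NFE2L1, none had a symbol in the platform table.

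Other large particles of every cell give a scale for the size of the shift. For the 59 listed genes of oxidative phosphorylation the median log2 fold change was 0.34 from E40 to E50, -0.07 from E50 to E60 and 0.26 from E40 to E60, which has the signs of the proteasome medians (0.28, -0.13 and 0.16). Under scaling to the housekeeping genes its E50-to-E60 value turned to 0.07, as that of the proteasome genes turned to 0.01. For 62 measured genes with symbols of the cytosolic ribosomal protein type the median was -0.01, 0.01 and -0.01. These values are near 0, and their sign turned under some scalings. The symbols were matched by pattern, so the list also holds paralogues such as RPL7L1 and the binding protein gene RPS19BP1. For 13 measured housekeeping genes the median was 0.02, -0.07 and -0.07, with YWHAZ at -1.16 from E50 to E60. The lists differ in mean signal, and no difference between them was tested.

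The direction of the proteasome median from E40 to E50 held under each scaling tried, and its size did not. As deposited it was 0.28 beside a median of -0.14 for all measured probe sets. With the arrays at equal medians it was 0.67 beside 0.25, after quantile normalization 0.20 beside 0.09, and with the arrays scaled to 13 housekeeping genes 0.18 beside -0.24. The members stood above all probe sets by 0.42 as deposited. Equal medians and housekeeping scaling shift all probe sets of an array alike, so they cannot change this gap. Quantile normalization can, and it brought the gap to 0.11. The members higher at E50 than at E40 numbered 35, 40, 35 and 32 of 40 under the same 4 scalings. From E50 to E60 the median was -0.13, -0.21, -0.13 and 0.01. Its sign thus turned under scaling to the housekeeping genes, where 21 members were higher and 19 lower. From E40 to E60 it was 0.16, 0.47, 0.07 and 0.19. Among the 13 housekeeping genes YWHAZ was 2.24-fold lower at E60 than at E50 (-1.16), and the others ranged from -0.32 to 0.18. Scaling without YWHAZ was not run, so how far the turn from E50 to E60 rests on this gene was not tested.

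**Figure D5:**
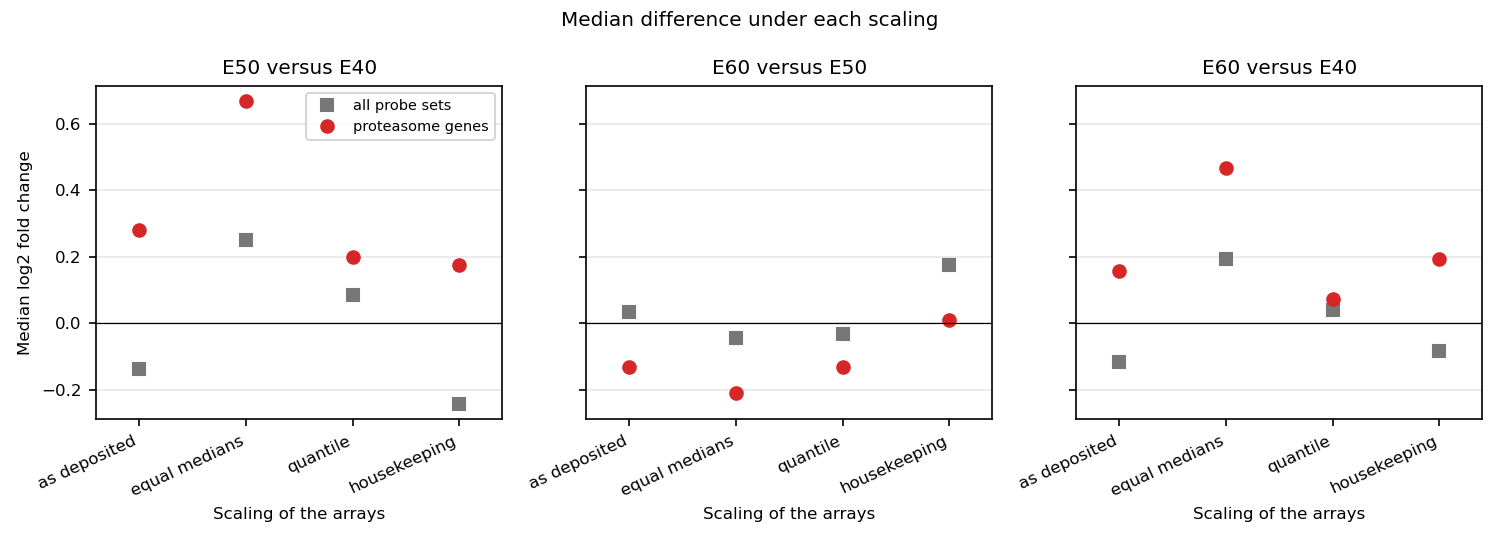
Median log2 fold change (vertical axis) of all measured probe sets (squares) and of the 40 proteasome genes (circles) under each scaling of the arrays (horizontal axis) in the 3 pairs of stages. From E40 to E50 the circles lie above 0 under each scaling, and from E50 to E60 the circle under housekeeping scaling is at 0.01. Equal medians and housekeeping scaling move circles and squares alike, so only quantile normalization can change the gap between them.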

How the data were processed

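The authors labelled RNA of 3 pools, hybridised each to 1 array and normalized the raw data by the MAS 5.0 algorithm of GeneSpring (the submitters' processing notes name MAS5 too). The deposited values are log2 signals, used without further transformation. The mean signal with 2% left out at each end was checked and is 500.1 on each array. The 124 control probe sets were removed from the 24123 on the array, which leaves 23999. The number of arrays limits the precision. Signals under the 25th percentile of their array were raised to it, and probe sets with both signals under it are not measured in that pair. The fold threshold of 2 follows the study, and 1.5-fold was added as a lower one. No test is possible with 1 array per stage. The platform annotation gives 1 symbol to 10069 probe sets, several to 198 and none to 13732. Gene IDs of 9961 of those with 1 symbol were found in the RefSeq table, which changed 0 symbols. Named genes are members past 1.5-fold, the immunoproteasome genes and their partners, the brightest and the dimmest of each role, the PSMA, PSMB, PSMC and PSMD gene of smallest range, and bright or over 2-fold genes of other lists; further members were named after their values were seen. The members and lists were chosen with earlier results of these data known. Alternatives changed the floor (none, the 50th percentile, or 1 value for all arrays), the scaling (equal medians, quantile, or 13 housekeeping genes), the threshold (1.5-fold) and the probe set (the mean per gene, or only those whose name marks no shared match). The comparison with bright probe sets, the medians without PSMB8 and the muscle sums without MYL1 were chosen after seeing the data. Calls were tested on simulated data, where 200 of 200 planted differences from E40 to E50 came back among 23999 probe sets. The planted differences lay past the 2-fold threshold and in bright probe sets. Their recovery checks the calls and not the detection of smaller differences such as those of the members. Sequences were not analysed here. Python 3.11.15, numpy 2.4.6, pandas 2.3.3 and matplotlib 3.10.9 were used.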

Additional observations from a re-analysis of the deposited data

How the results depend on the processing

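No member passed 2-fold as deposited. With the arrays at equal medians 1 member did from E40 to E50, and after quantile normalization 1 did, PSMB8 in each case. A threshold of 1.5-fold gave 1 member from E40 to E50, 1 from E50 to E60 and 2 from E40 to E60. The median of the members became 0.67 from E40 to E50 and 0.47 from E40 to E60 with the arrays at equal medians, and 0.18 from E40 to E50 and 0.0091 from E50 to E60 under scaling to the housekeeping genes; the last is a change of sign, and the shift between arrays that each scaling applies sets these values. The other medians over all members stayed within 0.1 of their value on the log2 scale, also with a floor at the 50th percentile, which leaves 39 members because PSMB8 falls under it, and without PSMB8. The floors cannot move the other members, which lie above them. No paired analysis was possible because each stage has 1 array. No interval can be given for any difference between stages, and signal over background limits PSMB8 and the probe sets that the study names PSMB9 and PSMD7 most, as they lie nearest to the floor.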
